A study of Drosophila melanogaster with 12 samples.

Results

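The genes described here are 4 Turandot stress peptides, *TotA*, *TotC*, *TotM* and *TotX*, and 4 genes of the JAK-STAT pathway, *upd3*, *dome*, *Stat92E* and *Socs36E*, measured in RNA of fly heads after knockdown of *PIG-A*. The rule that chose them used FlyBase symbols and no measured value, though earlier results of these data were known. They are 8 of the 17737 genes in the count table. Turandots are small peptides that the fly fat body, the counterpart of liver and adipose tissue, secretes into the haemolymph after heat, infection or wounding. In the JAK-STAT pathway an Unpaired cytokine binds the receptor Dome, the kinase Hop is activated, and the transcription factor Stat92E enters the nucleus and switches on targets such as *Socs36E*, whose product restrains the pathway. In the fat body, Stat92E is needed for the induction of *TotA* after infection, and the Imd factor Relish and the stress kinase Mekk1 also act on Turandot genes.

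RNA of whole heads was sequenced in 12 libraries, 3 in each of 4 groups. The neuron-specific knockdown carried ELAV-GAL4, a pan-neuronal driver, and an RNAi line against *PIG-A* (BDSC 62696), and its controls carried ELAV-GAL4 over the empty AttP site (BDSC 36304). The glia-specific knockdown and the glia controls carried REPO-GAL4, a driver of glial cells, with the same RNAi line or the same empty site. *PIG-A* encodes the enzyme subunit of the first step of GPI anchor synthesis. All flies were untreated and kept at 25 degrees in a 12-hour light cycle. The methods describe 3-day-old males and 10 heads per library, whereas the labels give 5 to 10 heads and an age of 3 to 5 days. The replicates were labelled as biological, but pooling of animals and the day of collection were not otherwise given, so p-values measure the spread between these libraries. Fat body lies in the head but is targeted by neither driver. In whole heads, fewer cells of a type and less RNA per cell cannot be told apart. Every level below is one of whole heads. The phrases "in neurons" and "in glia" name the driver of a comparison, not the cells measured.

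Libraries held 20694850 to 31893782 counts, so that 3 counts, taken as the detection floor, corresponded to 0.0825 to 0.143 CPM (counts-per-million). *PIG-A* was at 3.62 to 5.19 CPM in the neuron controls and 2.54 to 3.06 CPM in the neuron-specific knockdown, and at 4.81 to 4.86 CPM in the glia controls and 3.99 to 5.28 CPM in the glia-specific knockdown. The neuronal groups did not overlap and the glial groups did, and neither change was called (log2 fold changes −0.55 and −0.04, edgeR quasi-likelihood test, Benjamini-Hochberg adjusted p = 0.284 and 0.906). Whole heads include cells that the driver does not target, and each statement on the glia-specific knockdown goes by its label. Neuronal and glial markers were present in every library, with sums of 2143 to 3197 CPM over 4 neuronal genes and 1460 to 2341 CPM over 5 glial genes. The yolk protein genes *Yp1*, *Yp2* and *Yp3*, made mainly by the fat body of females, summed to 40906 to 186680 CPM, although the methods describe male heads.

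*TotA*, *TotC* and *TotX* lie near each other on chromosome 3R of BDGP Release 6. *TotA* occupies 20871036 to 20871700 and *TotC* occupies 20872988 to 20873580, both on the plus strand and 1287 bases apart. *TotX* lies at 20904917 to 20905518 on the minus strand, and with *TotB* and *TotZ* between them these 5 Turandot genes span 34483 bases. *TotM* stands alone on 2L at 5329857 to 5330464. The other members are at X 18277233 to 18284596 (*upd3*), X 19676061 to 19683518 (*dome*), 3R 20535323 to 20552311 (*Stat92E*) and 2L 18138675 to 18152417 (*Socs36E*). The annotated exons of no member overlapped those of another gene, so reads shared with an overlapping neighbour were not a limit. Reads that fit more than 1 Turandot gene could not be examined in a count table.

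Per kilobase of exon, *TotA* was the most abundant member, with a mean of 213 CPM per kb over the 12 libraries (range 102 to 394). This level exceeded that of 96.8% of the 10172 genes compared on this scale. *TotC* followed at 90.6 CPM per kb (range 19.97 to 306) and *Stat92E* at 85.2 CPM per kb (range 65.2 to 133). *TotC* was above *Stat92E* in only 2 of 12 libraries, so *Stat92E* was the higher in most libraries and the order of these means was not resolved. *TotM* came next at 19.3 CPM per kb, then *dome* at 11.9, *Socs36E* at 10.6 and *TotX* at 9.90. *dome* was above *Socs36E* in 11 libraries, whereas *Socs36E* was above *TotX* in only 7, so the order of these 2 was not resolved. The cytokine gene *upd3* was far below all others, at 0.0887 CPM per kb. Thus 3 of the Turandots and *Stat92E* sat in the upper part of the distribution of the head's genes, and the receptor and the feedback inhibitor near its middle.

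**Figure D1:**
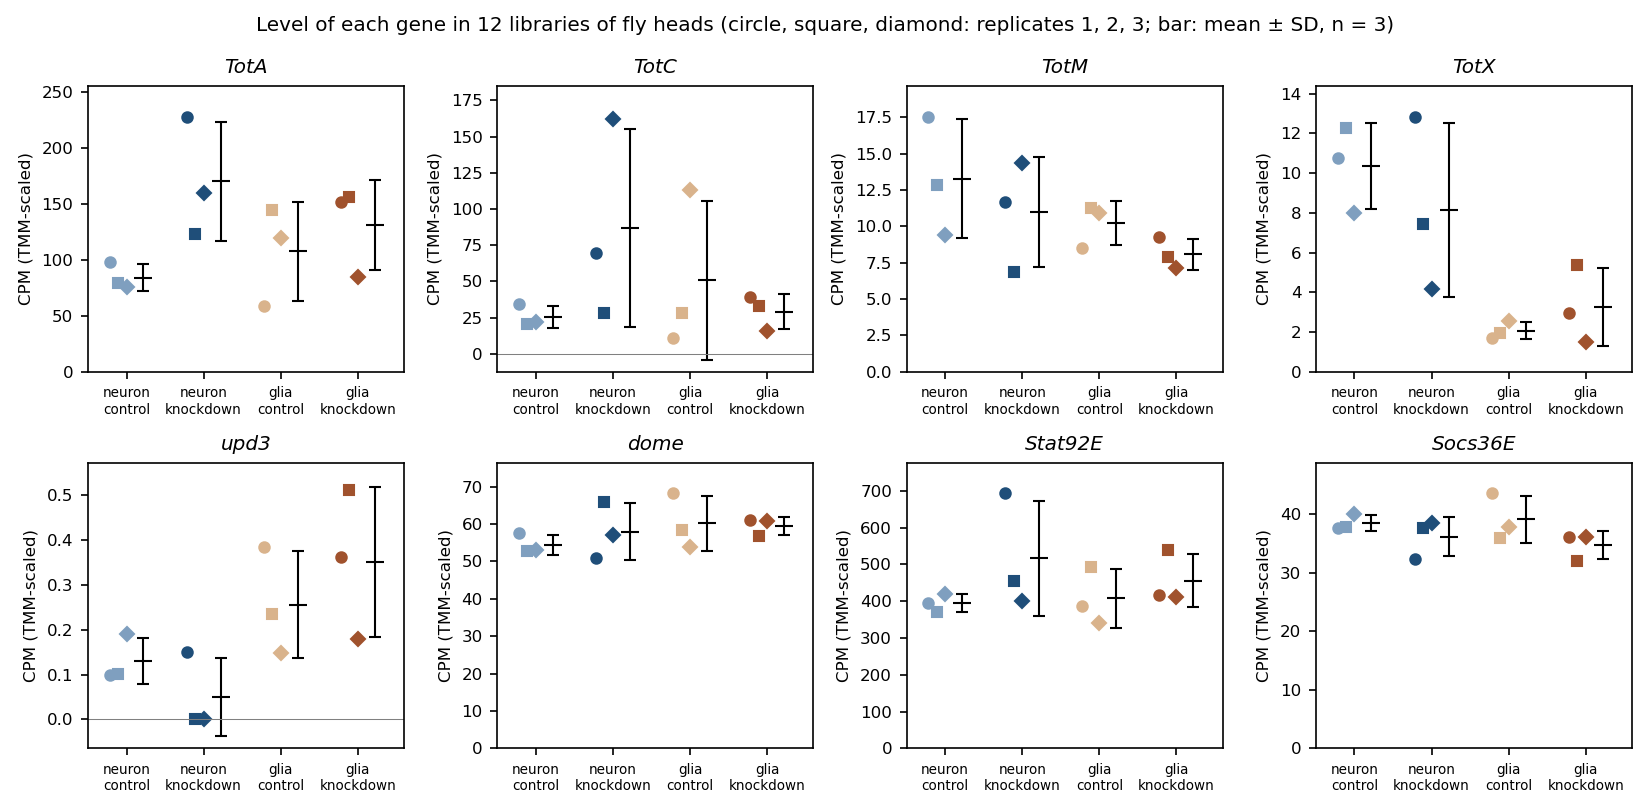
Level of each of the 8 genes (vertical axes, CPM after TMM scaling, linear and differing between panels) in the 12 libraries, grouped on the horizontal axis; circles, squares and diamonds are replicates 1, 2 and 3, and the bars give the mean ± SD of 3 libraries. *TotX* lay at 8.005 to 12.3 CPM in the neuron controls and 1.70 to 2.55 CPM in the glia controls, and *TotC* spread from 10.6 to 113 CPM within the glia controls alone.

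*TotA*, the first Turandot described and a marker of systemic stress, was higher in all 3 libraries of the neuron-specific knockdown than in all 3 of their controls, but the difference did not pass the test across all genes. The neuron controls had 98.2, 79.1 and 75.6 CPM (mean 84.3 ± 12.15, SD, n = 3). The neuron-specific knockdown had 228, 123 and 159.8 CPM (170.4 ± 53.4, SD, n = 3). The groups did not overlap, which held for 21.7% of the genes tested in this comparison and for 1 of the 7 members tested. The change was 2.02-fold (log2 fold change 1.01, SE 0.22, 95% interval 0.49 to 1.54), with an adjusted p of 0.148 by edgeR's quasi-likelihood test. DESeq2, used as an alternative, gave a log2 fold change of 1.02 and an adjusted p of 0.000672 and therefore called *TotA*, along with 2.64% of all genes. Without neuron knockdown replicate 2, the lowest of the 3, edgeR also called it (log2 fold change 1.203, adjusted p = 0.0376), as it did 199 genes in all in place of 16, and the adjusted p over all alternatives ran from 0.000672 to 0.497.

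With the glial driver the same gene had 59.0, 145 and 119 CPM in the controls (108 ± 44.04, SD, n = 3). It had 152, 157 and 85.2 CPM in the knockdown (131 ± 40.0, SD, n = 3). These groups overlapped widely, since the third knockdown library lay below 2 of the controls. The log2 fold change was 0.29 (SE 0.35, 95% interval −0.53 to 1.11, edgeR adjusted p = 0.674), and it was −0.01 without glia control replicate 1. An increase as large as that in the neuron-specific knockdown is therefore inside the interval. The fat body markers summed to 5374 CPM in glia control 1, the library lowest in *TotA*, and to 9630 to 21996 CPM in the other 11. They summed to 16882 CPM in neuron knockdown 1, the library highest in *TotA*, and to 10031 and 11445 CPM in the other libraries of that group. Most of each sum came from the lipoprotein gene *apolpp* and the fatty acid synthase gene *FASN1*. These had 2079 and 2229 CPM in glia control 1 and 9247 and 3604 CPM in neuron knockdown 1. The sums did not follow *TotA* throughout. The highest, 21996 CPM, was in glia knockdown 2, where *TotA* was at 157 CPM, and glia knockdown 3 had a sum of 15073 CPM with *TotA* at 85.2 CPM. Nor did each marker follow the sum, since *plin1* and *AkhR* were lower in neuron knockdown 1 (268 and 193 CPM) than in every neuron control (377 to 501 and 251 to 287 CPM), and *plin1* was at 577 CPM in glia control 1. The sum of the yolk protein genes was also lowest, 40906 CPM, in glia control 1 and highest, 186680 CPM, in neuron knockdown 1. In the neuron-specific knockdown *Yp2* was 2.28-fold and *Yp3* 1.85-fold higher, called by DESeq2 (adjusted p = 0.00107 and 0.0259) and not by edgeR. *Yp1* was 1.38-fold higher there and called by neither. Among the 7 fat body markers DESeq2 there called *Lsp2* and *fit* higher and *plin1* lower, beside 2.64% of all genes. None of them was called by edgeR. The part of fat body content or sex in the *TotA* levels was not tested.

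*TotC*, the neighbour of *TotA*, was the most variable member and was called in neither knockdown. It had 34.2, 20.7 and 21.6 CPM in the neuron controls (25.5 ± 7.54, SD, n = 3) and 69.5, 28.4 and 162 CPM in the neuron-specific knockdown (86.8 ± 68.6, SD, n = 3). The second knockdown library lay within the range of the controls. The log2 fold change was 1.76 (SE 0.57, 95% interval 0.43 to 3.09), with an unadjusted p of 0.0163 and an edgeR adjusted p of 0.254. It was 2.18 without neuron knockdown replicate 2, where the gene was called (edgeR adjusted p = 0.0474), and 0.94 without replicate 3 (edgeR adjusted p = 0.269). The size of this change thus rested on single libraries, and adjusted p over the alternatives ran from 0.0474 to 0.557.

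The glia controls had 10.6, 28.4 and 113 CPM of *TotC* and the glia-specific knockdown 39.2, 32.7 and 15.4 CPM. A single control library, replicate 3, stood above all 3 knockdown libraries. The log2 fold change was −0.80 (SE 0.78, 95% interval −2.64 to 1.05, edgeR adjusted p = 0.596), and it was 0.60 without glia control replicate 3 (edgeR adjusted p = 0.457). The direction of *TotC* in glia was therefore set by that library.

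The ratio of *TotC* to *TotA* counts showed the same libraries from another side. In 10 of the 12 libraries there were 18.0 to 34.8 *TotC* counts per 100 *TotA* counts. Neuron knockdown 3 had 102 and glia control 3 had 94.9, so that *TotC* nearly equalled its neighbour there. These libraries carry different drivers and genotypes. They were also the lowest of the 12 in *ninaE*, the major rhodopsin of the eye, at 14603 and 19164 CPM against 20476 to 28504 CPM, and in *Rel*, which encodes Relish, at 130.4 and 119 CPM against 146 to 241 CPM. *ninaE* and *Rel* were singled out after their values were seen, and their relation to *TotC* was not tested. Neither library was the highest in *TotA*, *TotM* or *TotX*.

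**Figure D2:**
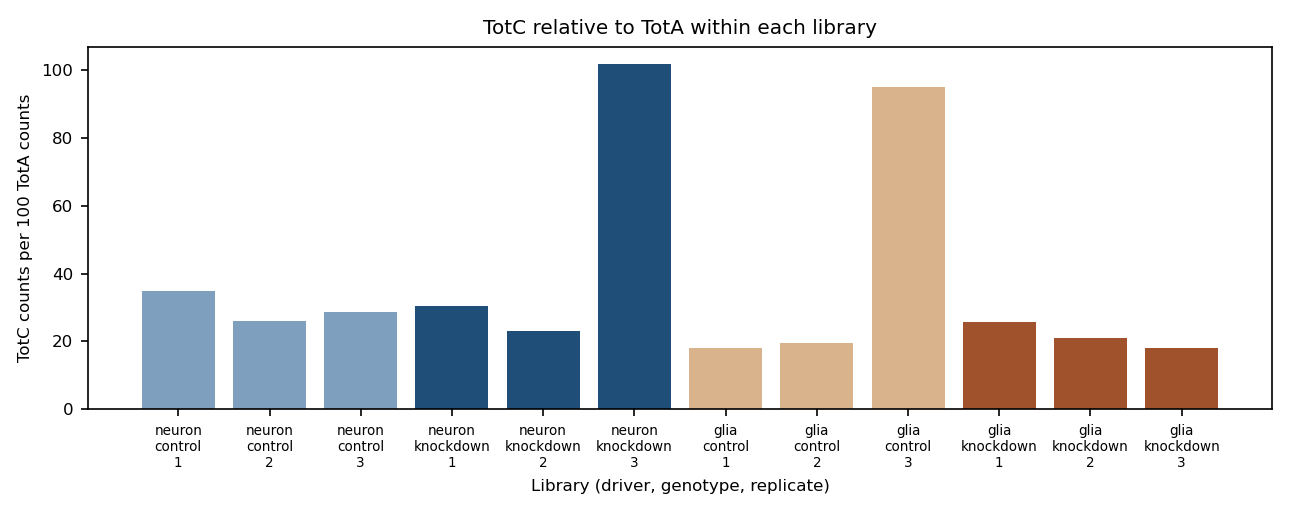
*TotC* counts per 100 *TotA* counts (vertical axis) in each of the 12 libraries (horizontal axis, by group and replicate). Neuron knockdown 3 (102) and glia control 3 (94.9) stand apart from the other 10 libraries, which lie between 18.0 and 34.8.

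*TotM*, a Turandot whose induction by septic injury depends on Mekk1, was called in neither knockdown. It had 17.5, 12.9 and 9.43 CPM in the neuron controls and 11.7, 6.88 and 14.3 CPM in the neuron-specific knockdown. The glia controls had 8.495, 11.3 and 10.9 CPM and the glia-specific knockdown 9.25, 7.87 and 7.11 CPM. Groups overlapped for both drivers. The log2 fold changes were −0.28 (SE 0.31) and −0.34 (SE 0.16, 95% interval −0.71 to 0.04), with edgeR adjusted p of 0.714 and 0.266, and ran from −0.52 to −0.03 and from −0.46 to −0.25 with single libraries left out. A doubling of *TotM* lies outside the interval of the glia-specific knockdown.

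*TotX* was called in neither knockdown. It had 10.8, 12.3 and 8.005 CPM in the neuron controls and 12.8, 7.42 and 4.15 CPM in the neuron-specific knockdown, and 1.70, 1.96 and 2.55 CPM in the glia controls and 2.94, 5.39 and 1.52 CPM in the glia-specific knockdown. Knockdown and control overlapped for both drivers. The log2 fold change was −0.35 (SE 0.38) in neurons and 0.67 (SE 0.43) in glia, with edgeR adjusted p of 0.720 and 0.414. With single libraries left out these values ran from −0.84 (without neuron knockdown replicate 1) to −0.04 (without neuron knockdown replicate 3) in neurons and from 0.12 (without glia knockdown replicate 2) to 1.004 (without glia knockdown replicate 3) in glia. Between the control groups of the drivers *TotX* was called, the only call that edgeR made for a member with all libraries of a comparison.

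The glia controls had less *TotX* than the neuron controls, with 2.07 ± 0.43 against 10.4 ± 2.17 CPM (SD, n = 3 each). The lowest neuron control was over 3 times the highest glia control. The difference was 5.04-fold (log2 −2.33, SE 0.23, 95% interval −2.86 to −1.80, edgeR adjusted p = 0.00241). It was 1 of 7 members called, beside 4.04% of all genes by edgeR and 5.85% by DESeq2, 1 of 7 with an unadjusted p under 0.05, beside 19.6% of all genes, and 1 of 7 without overlap, beside 27.2% of all genes. The call held under every alternative tried, with log2 values of −2.51 to −2.19 when single libraries were left out and adjusted p of 5.54e-16 to 0.0227 over edgeR and DESeq2. The other 6 members tested were not called between the controls, with log2 values from −0.39 (*TotM*) to 0.98 (*TotC*) and edgeR adjusted p of 0.390 or more. The *TotC* value was −0.41 without glia control replicate 3. Both control groups carry the same empty site, so they differ by the driver and whatever came with its stock. Driver insertion, genetic background and day of collection cannot be told apart in this design.

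The same contrast between the knockdowns, added after the controls had been seen, went in the same direction for *TotX* and was not called. The glia-specific knockdown had 3.28 ± 1.96 and the neuron-specific knockdown 8.14 ± 4.39 CPM (SD, n = 3 each), a 2.47-fold difference (log2 −1.30, SE 0.54, 95% interval −2.58 to −0.03, edgeR adjusted p = 0.168) that ran from log2 −1.86 to −0.82 with single libraries left out. The groups overlapped, since glia knockdown 2, at 5.39 CPM, was above neuron knockdown 3, at 4.15 CPM. No member was called here by edgeR or DESeq2, beside 4.45% and 7.31% of all genes, none was without overlap, beside 36.7%, and 2 of 7 members, *TotC* and *TotX*, had an unadjusted p under 0.05, beside 28.6% of all genes.

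The remaining Turandots were hardly detected. *TotB* had 0 to 4 counts per library and exceeded the floor of 3 counts in 1 library. *TotE* and *TotF* had 1 count each over all 12 libraries, and *TotZ* had 0. These genes respond to stress in other settings, and at this depth a low level of any of them could not be seen. Summed over the family, Turandot RNA was 114.7 to 161 CPM in the neuron controls, 166 to 341 CPM in the neuron-specific knockdown, 79.8 to 246 CPM in the glia controls and 109 to 204 CPM in the glia-specific knockdown. *TotA* and *TotC* made up most of each sum.

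The cytokines of the pathway were at or near the floor. *upd3*, the Unpaired cytokine released by haemocytes and injured tissue, had 3, 3 and 4 counts in the neuron controls and 4, 0 and 0 counts in the neuron-specific knockdown. It had 14, 6 and 4 counts in the glia controls and 10, 13 and 4 counts in the glia-specific knockdown. The glial libraries held 4 to 14 counts and the neuronal libraries 0 to 4. *upd3* was therefore too low for the filter in each comparison of 6 libraries, and a change of several-fold could not have been resolved there. Of the other ligands, *upd1* had 0 to 5 and *upd2* had 0 to 13 counts per library, over the floor in 1 and 4 of 12 libraries. Haemocyte markers, genes of the blood cells that make *upd3*, were present in every group, with sums of 674 to 1197 CPM.

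Downstream of the ligands no gene was called. *dome*, the receptor gene, had 57.5, 52.8 and 52.9 CPM in the neuron controls and 50.9, 66.0 and 57.2 CPM in the neuron-specific knockdown. It had 68.3, 58.5 and 53.8 CPM in the glia controls and 61.0, 56.7 and 60.7 CPM in the glia-specific knockdown. Each knockdown overlapped its controls. The log2 fold changes were 0.09 (95% interval −0.16 to 0.34) and −0.02 (95% interval −0.29 to 0.25), with edgeR adjusted p of 0.740 and 0.942. Changes of 1.5-fold in either direction lie outside both intervals.

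*et*, which lies beside *dome* and encodes a shortened receptor that dampens signalling, was lower in the neuron-specific knockdown (26.5, 29.0 and 23.7 CPM) than in each neuron control (34.8, 32.9 and 30.6 CPM). The groups did not overlap, but the gene was not called (log2 fold change −0.32, SE 0.10, edgeR adjusted p = 0.244). Its exons overlap those of *Zw* on the opposite strand, so its counts are less certain. *hop*, the only JAK of the fly, had 45.2 to 57.2 CPM in all 12 libraries, and its log2 fold changes were −0.11 in neurons and 0.16 in glia (edgeR adjusted p = 0.609 and 0.351). Its glial groups did not overlap, at 45.2 to 50.6 CPM in the controls and 52.0 to 57.2 CPM in the knockdown, beside 29.5% of all genes.

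*Stat92E*, the transcription factor of the pathway and the most counted of the 8 genes, was high in 1 knockdown library. It had 396, 370.3 and 419 CPM in the neuron controls and 694, 456 and 399 CPM in the neuron-specific knockdown. The third knockdown library lay within the controls, so the groups overlapped. The log2 fold change was 0.39 (SE 0.21, 95% interval −0.10 to 0.87, edgeR adjusted p = 0.440), 0.11 without neuron knockdown replicate 1 and 0.55 without replicate 3. The glia controls had 388, 494 and 339.6 CPM and the glia-specific knockdown 417, 540.0 and 412 CPM, a log2 fold change of 0.16 (SE 0.18, 95% interval −0.27 to 0.59, edgeR adjusted p = 0.651) that ran from 0.03 (without glia knockdown replicate 2) to 0.31 (without glia control replicate 2). The library with the most *Stat92E*, neuron knockdown 1, was also the one with the most *TotA*.

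*Socs36E*, a target and inhibitor of the pathway that serves as its common readout, was called in neither knockdown. It had 37.6, 37.9 and 40.1 CPM in the neuron controls and 32.4, 37.7 and 38.4 CPM in the neuron-specific knockdown. The glia controls had 43.6, 36.0 and 37.8 CPM and the glia-specific knockdown 36.1, 32.1 and 36.2 CPM. Groups overlapped for both drivers. The log2 fold changes were −0.09 (95% interval −0.29 to 0.11) and −0.17 (95% interval −0.44 to 0.09), with edgeR adjusted p of 0.671 and 0.412. An increase of 1.5-fold lies above both intervals.

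**Figure D3:**
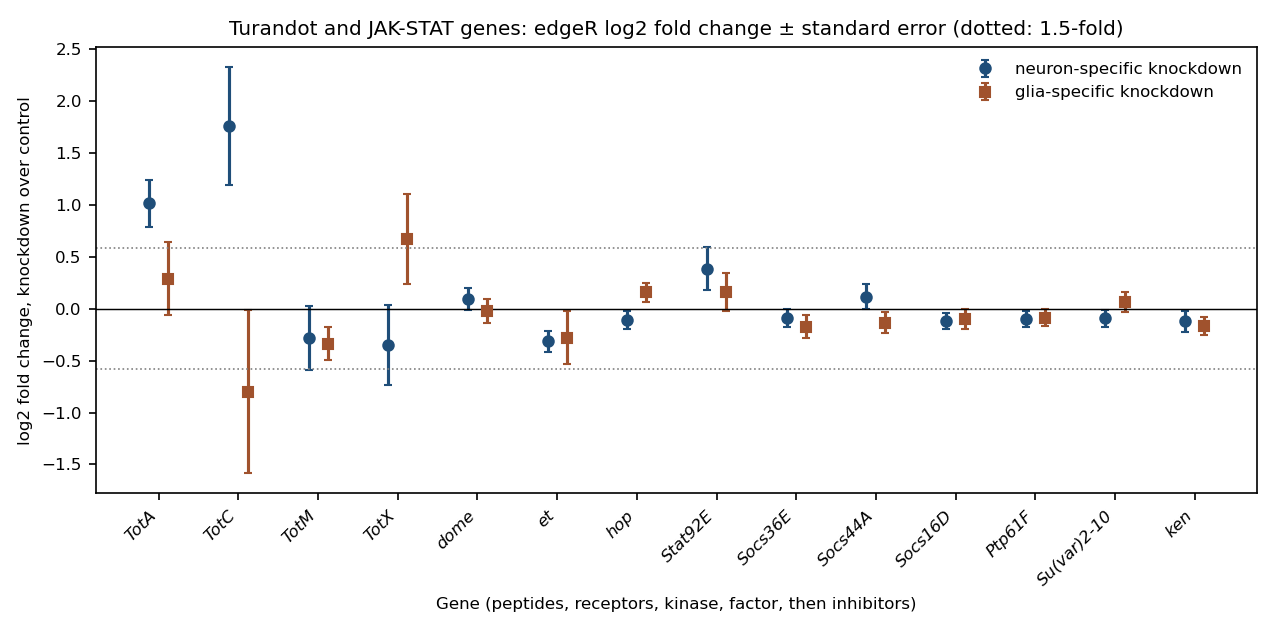
Log2 fold change of knockdown over control (vertical axis, edgeR, bars ± SE) of the Turandots and of the JAK-STAT genes (horizontal axis). Values are for the neuron-specific and the glia-specific knockdown, and dotted lines mark 1.5-fold. The intervals of *dome* and *Socs36E* are narrow and include 0, and those of *TotA* (0.49 to 1.54) and *TotC* (0.43 to 3.09) in neurons lie above 0 without either gene being called.

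Over all members, 0 of 7 tested were called by edgeR in the neuron-specific knockdown, beside 0.16% of all genes. DESeq2 called 1, *TotA*, beside 2.64% of all genes. By edgeR 2 of 7, *TotA* and *TotC*, had an unadjusted p under 0.05, beside 14.4% of all genes. In the glia-specific knockdown 0 of 7 were called by edgeR or DESeq2, beside 3.6% and 6.77% of all genes, and 0 of 7 had an unadjusted p under 0.05, beside 22.3% of all genes. No member was without overlap in glia, beside 29.5% of all genes. The median log2 fold change of the members was 0.09 in neurons and −0.02 in glia, and that of all genes was 0.00 and −0.02.

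Whether the knockdown acted differently under the 2 drivers was tested as the neuronal minus the glial log2 fold change in all 12 libraries. None of 8 members was called by edgeR or DESeq2, beside 3.01% and 6.38% of all genes. *TotC* came nearest, with a difference of 2.56 (SE 1.098, unadjusted p = 0.0391, edgeR adjusted p = 0.212), and it was the only member under an unadjusted p of 0.05, beside 21.1% of all genes. This difference was 1.17 without glia control replicate 3. The difference for *TotA* was 0.73 (edgeR adjusted p = 0.390) and for *TotX* −1.02 (SE 0.63, edgeR adjusted p = 0.373), and these ran from 0.45 to 1.03 and from −1.52 to −0.47 with single libraries left out. *upd3*, tested only in this fit, gave −1.71 (SE 1.22, edgeR adjusted p = 0.444). That value ran from −5.27 (without neuron knockdown replicate 1) to −1.13 (without neuron knockdown replicate 2) and rests on 0 to 4 counts in the neuronal libraries. Without replicate 1 the neuron-specific knockdown has no *upd3* count left, so the lowest value depends on the prior count of the fit and is no bound. *dome*, *Stat92E*, *Socs36E* and *TotM* gave 0.05 to 0.22.

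The members differed in how closely replicates of a group repeated each other. The SD of log2 CPM within groups was 1.14 for *TotC*, larger than that of 98.7% of the 10257 genes fitted. It was 0.64 for *TotX*, 0.49 for *TotA* and 0.38 for *TotM*, and all 4 Turandots exceeded at least 82.2% of genes. The median over all genes was 0.18. *Stat92E* had 0.28, and the receptor *dome* (0.14) and the inhibitor *Socs36E* (0.11) varied less than the median gene. The kinase *hop* (0.09) and the phosphatase gene *Ptp61F* (0.06), which restrains Hop and Stat92E, had 9.16% and 1.21% of genes below them. Not all JAK-STAT genes were steady. *upd3*, near the floor, had an SD of 0.64 and *et* of 0.31, with 94.1% and 75.7% of genes below them.

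**Figure D4:**
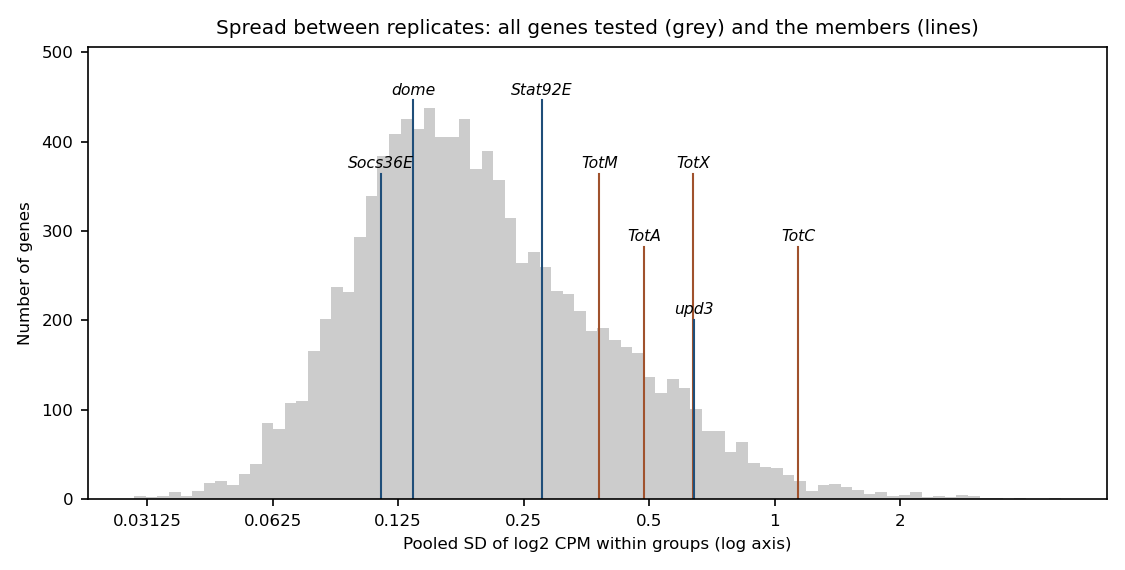
Number of genes (vertical axis) by the pooled SD of log2 CPM within the 4 groups (horizontal axis, log scale), with the members as lines. The 4 Turandots lie to the right of the bulk (0.38 to 1.14), and *dome* and *Socs36E* (0.14 and 0.11) lie to the left of the median gene at 0.18.

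The other genes of the pathway were not called either. Of 13 listed from ligands to inhibitors, 10 were tested in each knockdown and none was called, beside 0.16% and 3.6% of all genes by edgeR in neurons and glia and 2.64% and 6.77% by DESeq2. At an unadjusted p under 0.05 there was 1 in neurons, *et*, and 0 in glia, beside 14.4% and 22.3% of all genes. The median log2 fold change was −0.09 in both. The inhibitors *Socs44A* (21.7 to 29.8 CPM), *Socs16D* (108 to 130.1 CPM) and *Ptp61F* (60.3 to 71.3 CPM) and the repressor gene *ken* (22.5 to 29.3 CPM) kept to narrow ranges over the 12 libraries. The exons of *Socs44A* and *Ptp61F* overlap other features, so their counts are less certain. A further list held 7 genes known to respond to the pathway in other fly tissues. It included *vir-1*, which is induced by virus infection, and the thioester protein genes *Tep1*, *Tep2* and *Tep4*. Of these 7, 0 were called in either knockdown, and the medians were −0.02 and 0.07. In each knockdown 1 was under an unadjusted p of 0.05, against the same background. That gene was *wdp* in both, with log2 fold changes of 0.27 in neurons and 0.23 in glia (edgeR adjusted p = 0.235 and 0.188).

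The stress kinase and Imd genes, which act on Turandots by other routes, are read against the same shares of all genes, 0.16% and 3.6% called by edgeR and 14.4% and 22.3% under an unadjusted p of 0.05 in neurons and glia. Of 15 genes from *Mekk1* through the p38 and JNK kinases to *puc* and *egr*, 0 were called, with 1 in neurons and 2 in glia under an unadjusted p of 0.05 and medians of −0.05 and −0.06. Of 10 Imd genes, 0 were called, with 1 under an unadjusted p of 0.05 in each knockdown and medians of −0.05 and 0.04. DESeq2 called none of these lists' genes in either knockdown. At these list sizes counts of 0 to 2 are near or below those shares and single out neither list.

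Antimicrobial peptides, the fat body products that Imd and Toll switch on in infection, had another pattern over the libraries than the Turandots. Their sum was 35.2, 4338 and 4557 CPM in the glia-specific knockdown and 484, 212 and 97.7 CPM in the glia controls. The sum in the neuron-specific knockdown was 79.1, 48.3 and 31.5 CPM and in the neuron controls 79.5, 57.3 and 155 CPM. One glial knockdown library was thus below all 3 controls and the other 2 were above them, and edgeR called 0 of 14 genes there, beside 3.6% of all genes, with 8 under an unadjusted p of 0.05, beside 22.3%. DESeq2 called 3 higher and 1 lower, beside 6.77% of all genes called. In the same glial knockdown libraries the Turandot sum was 203.5, 203 and 109 CPM, so that glia knockdown 3 was the highest in antimicrobial peptides and the lowest of its group in Turandots. In neurons edgeR called 0 of 9, beside 0.16% of all genes, with 5 under an unadjusted p of 0.05, all lower, beside 14.4%, and DESeq2 called 2 lower, beside 2.64%.

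**Figure D5:**
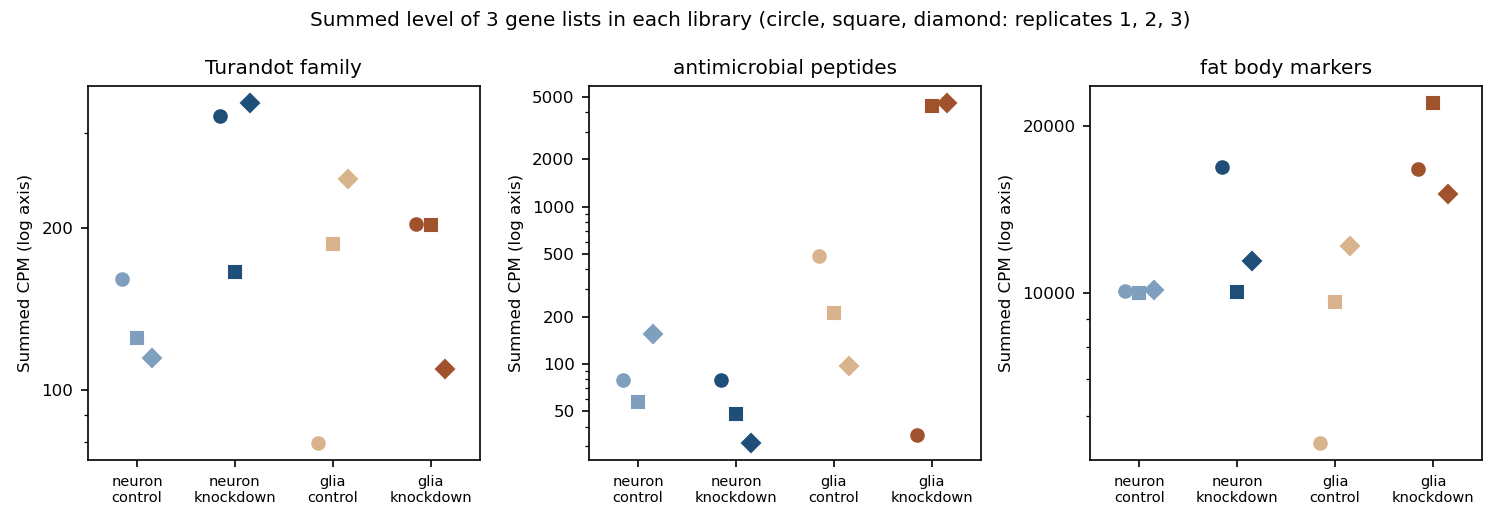
Summed level (CPM, log axis) in each library of the Turandot family and of the lists set beside it, by group. The sum of antimicrobial peptides reaches 4338 and 4557 CPM in glia knockdown 2 and 3 against 35.2 CPM in glia knockdown 1, while the Turandot sum stays between 79.8 and 341 CPM throughout.

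The genes whose log2 CPM followed *TotA* most closely over the 12 libraries were *Hex-C*, *CG6503*, *CG2233*, *Cyp6t1* and *Gip*, with Pearson's r of 0.92, 0.89, 0.88, 0.87 and 0.87. *Hex-C*, a hexokinase gene, had 102.7, 79.4 and 93.5 CPM in the neuron controls and 195, 111 and 188 CPM in the neuron-specific knockdown. *CG2233* had 5983 CPM in neuron knockdown 1 and 1165 CPM in glia control 1, the libraries highest and lowest in *TotA*. None of the 5 was called in the neuron-specific knockdown, where their log2 fold changes were 0.72 to 0.96 and their edgeR adjusted p 0.0901 or more. For *Socs36E* the 5 nearest genes were *Pdzd8*, *Pal2*, *CG43783*, *KaiR1D* and *RhoGAPp190*, with r of 0.86 to 0.90. Between members, r was 0.71 for *TotA* with *TotC*, 0.67 for *TotA* with *Stat92E* and −0.79 for *TotA* with *Socs36E*. These are descriptions over 12 libraries that share drivers and depth, without a test.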

How the data were processed

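The members, gene lists and tests were chosen with earlier results of these data known. After trimming with seqtk, alignment with Bowtie2 to the BDGP Release 6 (dm6) genome and sorting with SAMtools, the authors deposited raw counts per FlyBase gene from a stranded mRNA kit; the counting tool and its use of strand are not given in the sources used here. The tables deposited by the authors for each driver (DESeq2 mean signal, log2 fold change, standard error, score, p-value and adjusted p-value) hold their own comparisons and were not used.

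Of 17737 identifiers, 17598 were named from a reference table, and positions came from the Ensembl annotation of BDGP Release 6. Each comparison of 6 libraries, and the driver difference over 12, was fitted with edgeR 4.0.16 in R 4.3.3 (TMM, filterByExpr, quasi-likelihood F test, two-sided, no replicate block), with Benjamini-Hochberg adjustment over all genes tested. A call needed a change of 1.5-fold or more and an adjusted p not above 0.05. Levels are CPM scaled by TMM over 12 libraries, and per-kilobase levels divide by the union of exons. Correlations and spread used log2 CPM with a prior count of 2. Alternatives were DESeq2 1.42.0 and its size factors, no filter, one fit of all 12 libraries, a replicate block and leaving out each library, and the contrast of knockdowns was added after the data were seen. The text names all members, the other pathway genes and lists written by hand, and the 5 genes nearest in pattern to *TotA* and *Socs36E*; exceptions are named as such. Scripts were tested on simulated data with known changes. Depth was 20694850 to 31893782 counts, and floors cover counting error only. The fly sequence of these genes was not used here.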

Additional observations from a re-analysis of the deposited data

How the results depend on the processing

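Of 678 recomputed gene values, 633 kept direction and side of the threshold, 16 lost a call, 5 gained one and 24 changed sign, all 24 on leaving out 1 library and none of a called member. For the neuron-specific knockdown, members called ran from 0 to 2 when single libraries were left out (2 without neuron knockdown replicate 2), and DESeq2 called 1, *TotA*. Counts of members called were the same in every other comparison and alternative tried. The replicate numbers did not pair the libraries, since same-numbered deviations correlated at −0.15 to 0.15 within drivers; with the replicate block 0, 0, 0, 1 and 0 members were called for neurons, glia, their difference, the controls and the knockdowns, and calls over all genes were 2, 212, 365, 205 and 136 in place of 16, 358, 309, 405 and 442. DESeq2 called 278, 698, 686, 650 and 792 genes in the same order, and edgeR without a filter 49 and with one fit of 12 libraries 30 in neurons and 538 in glia. Leaving out single libraries gave 1 to 199 calls in neurons, 3 to 676 in glia, 130 to 485 in the difference, 92 to 805 between controls and 82 to 558 between knockdowns. Log2 values that changed sign when a library was left out ranged as follows, and the cause was not tested. In neurons they were −0.013 to 0.17 for *dome*, −0.018 to 0.21 for *Socs44A*, −0.015 to 0.35 for *alrm* and −0.25 to 0.053 for *srp*. In glia they were −0.012 to 0.55 for *TotA*, −1.28 to 0.60 for *TotC*, −0.091 to 0.080 for *dome* and −0.13 to 0.066 for *PIG-A*. In the difference they were −0.19 to 0.31 for *TotM*, −0.057 to 0.38 for *Stat92E* and −0.0035 to 0.15 for *Socs36E*. Between controls they were −0.41 to 1.47 for *TotC*, −0.11 to 0.16 for *Stat92E* and −0.066 to 0.093 for *Socs36E*, and between knockdowns −0.053 to 0.14 for *dome* and −0.34 to 0.090 for *Stat92E*. Depth limited *upd1*, *upd2*, *upd3* and *TotB*, at or near 3 counts.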

Other observations

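Markers of other cells of the head were measured beside these genes. In the glia-specific knockdown *alrm*, an astrocyte-like glial gene, was called higher (log2 fold change 0.64, edgeR adjusted p = 0.0444), *srp*, a GATA factor of haemocytes and fat body, was called higher (0.73, adjusted p = 0.0147) and *plin1*, a lipid droplet protein of the fat body, was called lower (−0.82, adjusted p = 0.0497). *srp* and *plin1* are single genes of mixed lists. Of 5 glial markers 5 had a log2 fold change above 0 and 0 below. Among them *moody*, at 0.57 (edgeR adjusted p = 0.0217), was not called because it fell short of 1.5-fold. Of 7 fat body markers 5 had a log2 fold change above 0 and 2 below, and *apolpp*, a lipoprotein gene, was 2.64-fold higher without overlap (edgeR adjusted p = 0.0697, DESeq2 adjusted p = 6.51e-05, called by DESeq2), as was *FASN1*, a fatty acid synthase gene, at 1.84-fold (edgeR adjusted p = 0.217). Of 6 haemocyte markers tested 3 were above 0 and 3 below. Among them *Hml* was 1.68-fold higher without overlap, called by DESeq2 (adjusted p = 0.0233) and not by edgeR (adjusted p = 0.128). The calls of *alrm* and *plin1* were lost in 6 and that of *srp* in 4 of 11 alternatives. *Lsp2*, a storage protein of the fat body, was at 5.60 to 12.3 CPM in the neuron controls and at 2544, 29.2 and 666 CPM in the neuron-specific knockdown, and at 44.3, 96.8 and 1135 CPM in the glia controls and 122, 1022 and 156 CPM in the glia-specific knockdown. In the glia controls its order was that of *TotC*, with replicate 3 highest in both. In the neuron-specific knockdown replicate 1 had the most *Lsp2* and replicate 3 the most *TotC*, with replicate 2 lowest in both. In the neuron controls replicate 3 had the most *Lsp2* and replicate 1 the most *TotC*, with replicate 2 lowest in both. In the glia-specific knockdown replicate 2 had the most *Lsp2* and replicate 1 the most *TotC*. Midgut genes summed to 10.9 to 42.3 CPM.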
